A study of Mus musculus with 8 samples.

Results

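The 9 genes described here, Ms4a1, Cd79a, Cd79b, Pax5, Cr2, Fcer2a, Blk, Cd22 and Fcmr, are markers of B lymphocytes. They were chosen by name from the 54838 genes counted in mouse submandibular gland, a major salivary gland. All 9 were found by Ensembl identifier in each of 8 RNA sequencing libraries, 4 from wild-type mice (WT, C57BL/6J) and 4 from Dp16 mice, B6.129S7-Dp(16Lipi-Zbtb21)1Yey/J, a model of Down syndrome. All mice were male and came from the same supplier, the Dp16 samples carry the same strain label as the WT samples, and no treatment, age or litter is given. Dp16 mice carry an extra copy of the part of chromosome 16 between Lipi and Zbtb21 in every cell, so its genes have 3 copies instead of 2. None of the 9 genes lies in that segment. The labels do not say that each library came from a separate mouse, so p-values measure the spread between these samples.

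B lymphocytes recognise antigen through a membrane-bound antibody that signals through the CD79A and CD79B chains. Mature resting B cells carry CD20 (Ms4a1), the inhibitory receptor CD22, the complement receptor CD21 (Cr2) and the IgE receptor CD23 (Fcer2a) on their surface, and their identity depends on the transcription factor PAX5. When a B cell becomes an antibody-secreting plasma cell it loses PAX5, CD20, CD21, CD22 and CD23. Salivary glands hold many plasma cells, which make the IgA of saliva, and few mature B cells in healthy animals.

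Reads in genes ranged from 90790542 to 115729892 per library, so 10 reads correspond to about 0.1 CPM, the count scaled to library size. The 88 protein-coding genes tested in the duplicated segment had a median log2 level of 0.57, 0.53, 0.56 and 0.60 above the WT mean in Dp16 replicates 1 to 4, and of -0.03 to 0.03 in the WT libraries. Each Dp16 library thus carried the raised segment. The tissue label was matched by Mucl2, a secreted product of the gland, which took 21.9% to 30.8% of gene reads. By edgeR with Benjamini-Hochberg adjustment, 121 of 19358 genes passed an adjusted p of 0.05 (0.625%), 91 of them higher in Dp16 (0.470%), and leaving out 1 library at a time gave 0 to 446.

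The B cell genes were low in WT glands and higher in 3 of the 4 Dp16 libraries. Together they had 354, 230, 234 and 187 reads in WT replicates 1 to 4 and 1395, 399, 1387 and 606 in Dp16 replicates 1 to 4. Scaled to library size, Dp16 replicates 1, 3 and 4 had 5.15, 5.20 and 2.53 times the WT mean of the summed CPM, and Dp16 replicate 2 had 1.40 times. The summed level of Dp16 replicate 2, at 3.46 CPM, lay below that of WT replicate 1, at 3.56 CPM. In 8 of the 9 genes Dp16 replicates 1, 3 and 4 all exceeded each WT library. The exception was Fcmr, in which Dp16 replicate 4 lay below WT replicate 1. In bulk tissue, fewer cells of a type and less RNA per cell cannot be told apart.

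**Figure D1:**
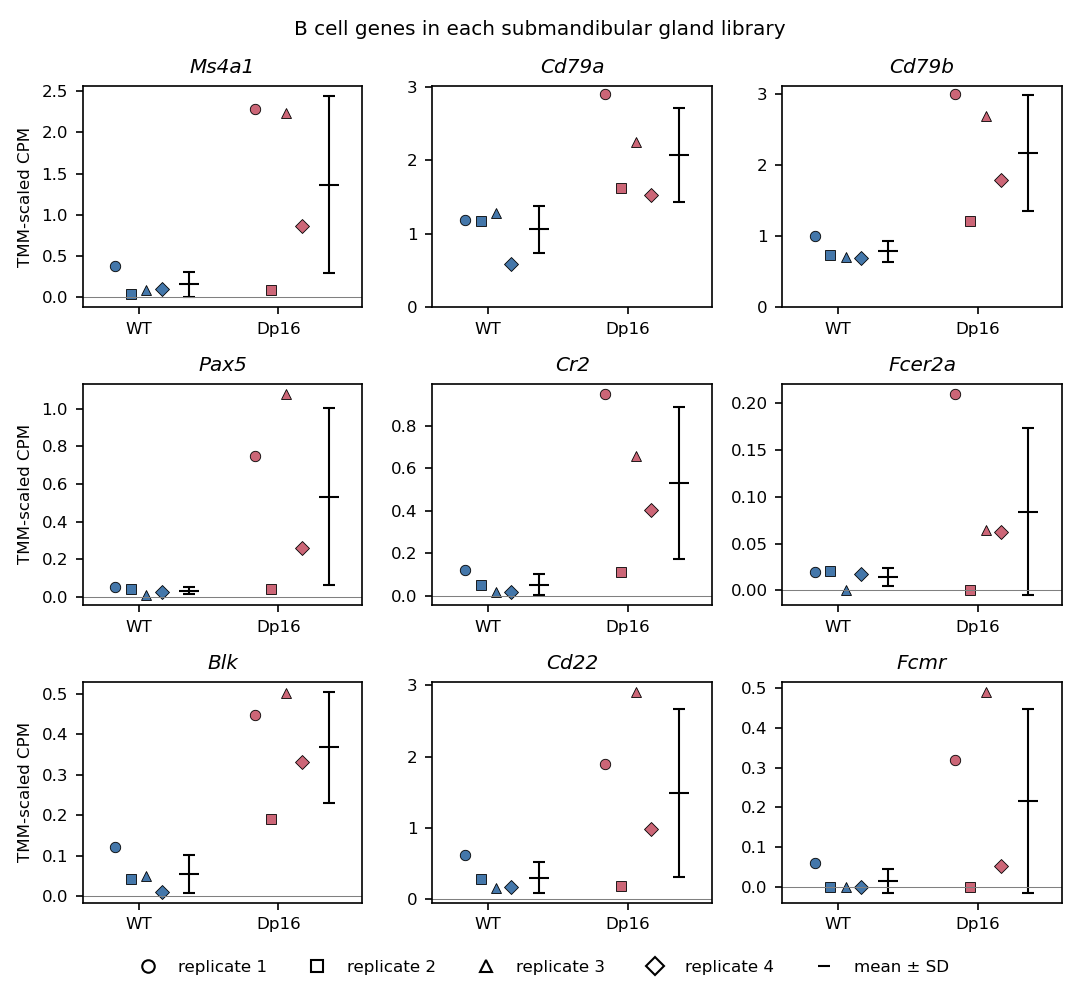
TMM-scaled CPM (y axis, a scale for each gene) of the 9 B cell genes in the WT (blue) and Dp16 (red) libraries, with a symbol for each replicate and the mean ± SD beside each group. Dp16 replicate 2 (red square) lies among the WT libraries for Ms4a1, Pax5, Cr2, Fcer2a, Cd22 and Fcmr and above them for Cd79a, Cd79b and Blk.

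Of the 9 genes, those of the B cell receptor signalling chains had the highest mean levels, although in Dp16 replicate 3 Cd22 had more reads than either. Cd79a (ENSMUSG00000003379, chromosome 7 from 24897381 to 24902197 on GRCm38, plus strand) had 118, 113, 130 and 68 reads in WT replicates 1 to 4 and 317, 187, 242 and 148 in Dp16 replicates 1 to 4. All 4 Dp16 libraries were above each WT library. Mean Cd79a was 1.06 ± 0.318 CPM in the WT group and 2.07 ± 0.635 in the Dp16 group (SD, n = 4), a log2 fold change of 0.97 (SE 0.294, edgeR adjusted p = 0.11). Its partner Cd79b (ENSMUSG00000040592, chromosome 11 from 106311341 to 106314762, minus strand) had 100, 71, 71 and 80 reads in WT and 328, 141, 291 and 173 in Dp16. The groups did not overlap here either, with Dp16 replicate 2 the lowest of its group. Cd79b had 0.786 ± 0.148 CPM in WT against 2.18 ± 0.819 in Dp16 (SD, n = 4), a log2 fold change of 1.47 (SE 0.292, edgeR adjusted p = 0.0589), the smallest adjusted p of the 6 genes tested. Blk (ENSMUSG00000014453, chromosome 14 from 63372836 to 63417037, minus strand) encodes a SRC family kinase that acts next to these chains. It had 12, 4, 5 and 1 reads in WT and 49, 22, 54 and 32 in Dp16, again without overlap. Its log2 fold change was 2.73 (SE 0.596, edgeR adjusted p = 0.0677).

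Genes for surface proteins of mature B cells had lower mean levels than Cd79a and Cd79b, and in Ms4a1, Cd22 and Cr2 Dp16 replicate 2 lay within the WT range. Ms4a1 (ENSMUSG00000024673, chromosome 19 from 11249675 to 11266241, minus strand), which encodes CD20, had 38, 4, 9 and 12 reads in WT replicates 1 to 4 and 249, 10, 240 and 83 in Dp16 replicates 1 to 4. The 10 reads of Dp16 replicate 2 are within the WT range. Ms4a1 had 0.154 ± 0.154 CPM in WT against 1.36 ± 1.07 in Dp16 (SD, n = 4), and a log2 fold change of 3.13 (SE 0.934, edgeR adjusted p = 0.105). Cd22 (ENSMUSG00000030577, chromosome 7 from 30865402 to 30880342, minus strand), a sialic acid-binding receptor that dampens B cell receptor signals, had 61, 27, 16 and 19 reads in WT and 208, 21, 313 and 95 in Dp16. Dp16 replicate 2 was again inside the WT range, and the log2 fold change was 2.29 (SE 0.752, edgeR adjusted p = 0.123). Cr2 (ENSMUSG00000026616, chromosome 1 from 195136811 to 195176716, minus strand) encodes the complement receptor CD21, which follicular dendritic cells carry too. It had 12, 5, 2 and 2 reads in WT and 104, 13, 71 and 39 in Dp16. In CPM, Dp16 replicate 2 (0.113) lay just below WT replicate 1 (0.121), and the other Dp16 libraries lay above. Its log2 fold change of 3.33 (SE 0.758, edgeR adjusted p = 0.0709) was the largest of the 6.

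Pax5, Fcer2a and Fcmr had too few reads for the expression filter of edgeR and were not part of the test. Pax5 (ENSMUSG00000014030, chromosome 4 from 44524757 to 44710487, minus strand), the transcription factor that keeps B cell identity, had 5, 4, 1 and 3 reads in WT and 82, 5, 116 and 25 in Dp16. The mean CPM was 16.6 times as high in Dp16, and Dp16 replicate 2 was within the WT range. Fcmr (ENSMUSG00000042474, chromosome 1 from 130865669 to 130880791, plus strand), the receptor for the Fc part of IgM, had 6, 0, 0 and 0 reads in WT and 35, 0, 53 and 5 in Dp16. Its reads came mostly from Dp16 replicates 1 and 3. Fcer2a (ENSMUSG00000005540, chromosome 8 from 3681737 to 3694175, minus strand), which encodes CD23, had 2, 2, 0 and 2 reads in WT and 23, 0, 7 and 6 in Dp16. A library with 0 reads allows up to 3 by counting error alone, so Fcer2a was at or below that limit in 5 of the 8 libraries. Without the filter, edgeR gave log2 fold changes of 4.01 for Pax5, 3.77 for Fcmr and 2.43 for Fcer2a (edgeR adjusted p = 0.0541, 0.185 and 0.282). Genes on the opposite strand that overlap Ms4a1, Pax5 or Cd22 had at most 4 reads in any library.

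Upstream sequence is shown for the tested genes with the largest and the smallest fold change, Cr2 and Cd79a, to set side by side the short motifs found before their starts. RefSeq promoter windows on GRCm38.p6 (250 bases before to 50 after each start) were matched by symbol for 6 of the 9 genes, Cd79a, Pax5, Cr2, Fcer2a, Cd22 and Fcmr. The stretches below end before the first annotated exon, run 5′ to 3′ on the gene's strand, and have matches of CAGGTG (an E-box of the kind bound by E2A) or GGAAGT (a core bound by ETS factors), on either strand, in capitals.
Cr2 (chr1:195176720-195176969, minus strand): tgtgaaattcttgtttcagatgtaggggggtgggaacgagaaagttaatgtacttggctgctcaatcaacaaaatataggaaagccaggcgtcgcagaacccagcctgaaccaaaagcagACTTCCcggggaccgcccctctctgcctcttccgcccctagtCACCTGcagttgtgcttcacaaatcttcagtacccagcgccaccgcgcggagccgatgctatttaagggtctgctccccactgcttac
Cd79a (chr7:24897247-24897380, plus strand): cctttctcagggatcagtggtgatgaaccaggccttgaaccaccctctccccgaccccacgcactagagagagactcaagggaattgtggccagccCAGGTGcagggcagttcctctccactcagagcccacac
CAGGTG was found in windows of 5 of the 6 genes (Cd22, Cd79a, Cr2, Fcer2a and Fcmr) and in 20.2% of all 32851 windows. GGAAGT was found in windows of Cd79a, Cr2 and Fcer2a and in 23.8% of all windows, and the Cd79a match lies beyond the stretch shown. The octamer ATGCAAAT, bound by OCT factors, was in none of the windows of these 6 genes and in 1.74% of all. Fcer2a has 3 windows and each of the other 5 genes has 1. The motifs were chosen after the windows had been read, none overlaps another in the stretches shown, and a match is a description of the letters only.

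Of the 6 genes tested, all were higher in Dp16, with a median log2 fold change of 2.51, where 51.1% of all genes tested were higher and their median was 0.01. A gene low in WT, such as Cr2 or Blk, passes the filter through its Dp16 reads. This median, the directions and the edgeR and limma-voom counts below therefore describe the genes that passed and do not stand for all 9. The 9 genes were also chosen with earlier results of these data known, so the shares over all genes are given for scale only. By edgeR 0 of the 6 passed over all genes, against 0.470% of all genes that passed as higher. At an adjusted p below 0.10 there were 3 (Cd79b, Cr2 and Blk), where 3.85% of all genes were higher. Before adjustment all 6 had p below 0.05, a share of 12.7% over all genes in the upward direction. DESeq2 gave 6 genes an adjusted p below 0.05 (Ms4a1, Cd79a, Cd79b, Pax5, Cr2 and Blk), where 5.63% of all genes were called higher, and limma-voom gave 2 (Cd79b and Blk), where 1.28% were. Cd79a, Cd79b and Blk were above each WT library in every Dp16 library, which held for 7.11% of all genes tested.

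The call depended on Dp16 replicate 2. Without it, 7 of the 9 genes were tested and edgeR called 6 of them higher, where 1.80% of all genes were called higher. That library was the lowest of the Dp16 group in 8 of the 9 genes, so leaving it out was bound to raise the Dp16 mean of those 8. Pax5, with 1 to 5 reads in the WT libraries, entered this fit through its Dp16 reads. The calls without Dp16 replicate 2 therefore do not stand as separate support. The edgeR adjusted p-values without that library were 0.0239 for Cd79b and Pax5, 0.0312 for Cr2, 0.0399 for Ms4a1, 0.0465 for Cd22 and 0.0479 for Blk, and 0.0959 for Cd79a, which was not called. Leaving out any other single library gave 0 calls among the 9. Without Dp16 replicate 2 the log2 fold changes were 3.53 for Ms4a1, 3.67 for Cr2 and 1.67 for Cd79b. Without WT replicate 1 they were 4.07 for Ms4a1, 4.12 for Cr2, 3.44 for Blk and 2.87 for Cd22, further from the values with all libraries than without Dp16 replicate 2, and none of the 9 was called.

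**Figure D2:**
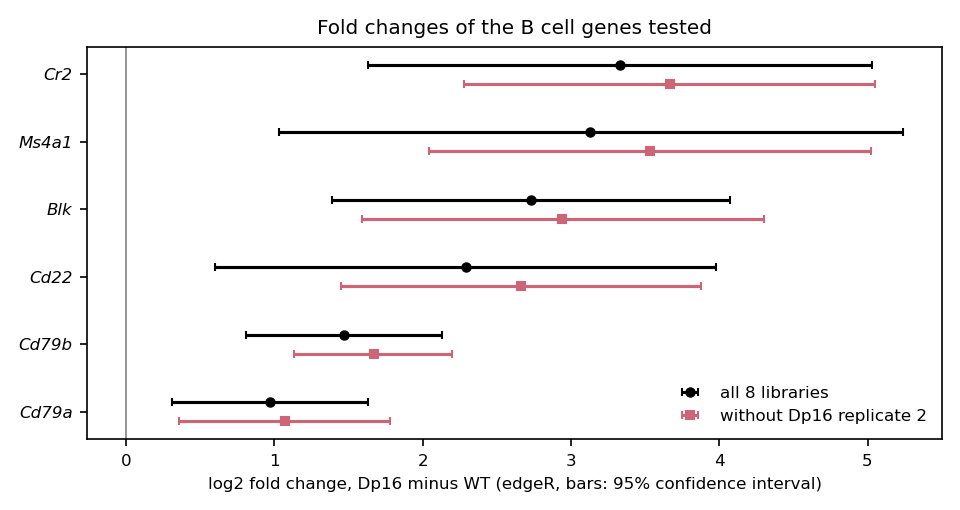
Log2 fold change (x axis, Dp16 minus WT) of the 6 B cell genes tested by edgeR, with 95% confidence intervals, from all 8 libraries (black circles) and without Dp16 replicate 2 (red squares). The intervals of all 6 genes lie above 0 in both fits, from 0.31 to 1.63 for Cd79a to 1.63 to 5.03 for Cr2 with all libraries.

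The genes did not share 1 order of the libraries. Dp16 replicate 1 was highest in 5 genes and Dp16 replicate 3 in the other 4, with Dp16 replicate 4 next after both in 7. Of the Dp16 libraries, replicate 2 was lowest in 8 of the 9 genes, and the exception was Cd79a, in which Dp16 replicate 4 was lowest. WT libraries differed too: WT replicate 1 was the highest of its group in 7 of the 9 genes, with 38 reads of Ms4a1 where the other WT libraries had 4 to 12. Against the WT mean, Dp16 replicate 3 had 33.7 times the Pax5 CPM and 14.4 times the Ms4a1 CPM, but 2.12 times the Cd79a CPM.

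Per kilobase of merged exons, which allows levels to be compared between genes, Cd79a and Cd79b stood above the other 7 genes in both groups. In WT, Cd79a had 0.728 ± 0.218 and Cd79b 0.549 ± 0.104 CPM per kilobase (SD, n = 4), and their library ranges overlapped. The next gene, Cd22, had 0.0604 ± 0.0424 CPM per kilobase, with no overlap with Cd79b. Below it Ms4a1 (0.025), Blk (0.0205), Fcmr (0.0087), Cr2 (0.00647), Fcer2a (0.00471) and Pax5 (0.00361) followed in mean CPM per kilobase in WT, and each overlapped with its neighbour. In Dp16 the means per kilobase were 1.52 ± 0.572 for Cd79b and 1.42 ± 0.436 for Cd79a, with overlapping ranges, then 0.296 ± 0.233 for Cd22 and 0.22 ± 0.174 for Ms4a1. Blk, Fcmr, Cr2, Pax5 and Fcer2a came after them at 0.136, 0.124, 0.0655, 0.0601 and 0.0273 CPM per kilobase, so Pax5 and Fcer2a, whose ranges overlapped, were the only change of order below Cd79a and Cd79b.

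The makeup of the B cell reads also differed between libraries. Cd79a and Cd79b together gave 61.6%, 80.0%, 85.9% and 79.1% of the reads of the 9 genes in WT replicates 1 to 4. They gave 82.2% in Dp16 replicate 2, but 46.2%, 38.4% and 53.0% in Dp16 replicates 1, 3 and 4. Per read of Ms4a1 there were 1.27, 1.01 and 1.78 reads of Cd79a in these last 3 libraries, 18.7 in Dp16 replicate 2, and 3.11 to 28.2 in WT.

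Of 15 other B cell surface genes, 13 were tested and 12 had positive log2 fold changes (median 0.96), with 0 called by edgeR over all genes, 10 at an unadjusted p below 0.05 and 8 called higher by DESeq2. Over all genes, the shares were 51.1% positive and 12.7% higher at an unadjusted p below 0.05. Called higher were 0.470% by edgeR and 5.63% by DESeq2, and these shares also serve the lists that follow. Tnfrsf13c, the BAFF receptor, had 2.11 (edgeR adjusted p = 0.145), and Cxcr5, the receptor that guides B cells to follicles, had 9, 1, 0 and 0 reads in WT and 43, 6, 51 and 14 in Dp16 and was not tested. Cd180, a toll-like receptor homologue (1.25), Tnfrsf13b, the receptor TACI (0.86), and Cd40, the receptor for T cell help (1.46), reached edgeR adjusted p-values of 0.0683, 0.0677 and 0.0943. Cd180 and Tnfrsf13b, 2 of the 13 tested, were above each WT library in all 4 Dp16 libraries, Dp16 replicate 2 included. This held for 7.11% of all genes tested.

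Genes of B cell receptor signalling, many of which other leukocytes and epithelial cells use as well, had smaller fold changes. Of 18 tested, 17 were positive (median 0.41), 0 were called by edgeR, 7 higher and 1 lower had an unadjusted p below 0.05, and DESeq2 called 6 higher. The adaptor Blnk (0.40), the kinases Syk (0.69), Btk (0.59) and Lyn (0.09), the exchange factor Vav1 (0.75) and the phosphatase Inpp5d (0.62) reached edgeR adjusted p-values of 0.0963, 0.148, 0.215, 0.506, 0.107 and 0.104. Of 13 transcription factors of B cells, 11 were positive (median 0.38), 0 were called by edgeR, 6 had an unadjusted p below 0.05 and DESeq2 called 5 higher. Spib, of mature B cells and plasmacytoid dendritic cells, had 15, 9, 14 and 22 reads in WT and 94, 12, 172 and 56 in Dp16 (log2 fold change 2.43, edgeR adjusted p = 0.0922). Bcl11a (0.64), Ikzf1 (0.79), Bach2 (0.48), Pou2af1 (0.63) and Ebf1 (0.38) reached edgeR adjusted p-values of 0.0536, 0.105, 0.113, 0.113 and 0.163.

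Of 6 genes of germinal centres, where B cells mature in response to antigen, 4 were tested and positive (median 0.30), with 0 called by edgeR or DESeq2 and 0 at an unadjusted p below 0.05. Of 10 ligands that keep or attract B cells, 6 were tested and positive (median 0.50), with 0 called by edgeR, 3 at an unadjusted p below 0.05 (Tnfsf13b, Cxcl12 and Ltb) and 1 called by DESeq2 (Ltb). Tnfsf13b, the survival factor BAFF, had 1.07 ± 0.201 CPM in WT against 1.74 ± 0.54 in Dp16 (SD, n = 4; log2 fold change 0.70, edgeR adjusted p = 0.144). Cxcl13, the chemokine that draws B cells, had 753, 133, 129 and 310 reads in WT and 246, 88, 1912 and 212 in Dp16. It was highest in Dp16 replicate 3 and next highest in WT replicate 1, and Dp16 replicate 1, with as many B cell reads as Dp16 replicate 3, was within the WT range.

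Antibody and plasma cell genes differed among themselves in where Dp16 replicate 2 stood. Ighm and Ighd, the antibody classes of mature resting B cells, had 671 and 2 reads in Dp16 replicate 2, within and below the WT ranges of 557 to 1388 and 6 to 13. In Dp16 replicates 1, 3 and 4 they had 6378, 10478 and 3588 and 91, 95 and 48 reads. Igha and Jchain, of the IgA-secreting plasma cell, were abundant and differed less: Igha had 702 ± 163 CPM in WT and 931 ± 166 in Dp16 (log2 fold change 0.41, edgeR adjusted p = 0.228) and Jchain 277 ± 42 and 417 ± 88.2 (0.59, edgeR adjusted p = 0.101; SD, n = 4). In Jchain, Dp16 replicate 2 was the second highest library at 470 CPM and Dp16 replicate 3 the lowest Dp16 library at 312, whereas in Ms4a1 they were the lowest of the Dp16 libraries and the second highest library. Ighg1 rose in all 4 Dp16 libraries, Dp16 replicate 2 included, from 0.38 ± 0.148 to 3.73 ± 0.937 CPM (SD, n = 4; log2 fold change 3.30, SE 0.32, edgeR adjusted p = 0.0132). Iglc3 rose too (1.05, edgeR adjusted p = 0.0276). Other IgG genes had Dp16 replicate 2 far below the rest of its group: Ighg2b had 7.97 CPM there against 66.1, 46.4 and 19.3 in Dp16 replicates 1, 3 and 4, and 4.45 to 6.68 in WT. Ighg2c had 9.58 CPM in Dp16 replicate 2, just above WT replicate 1 at 9.49. Ighg3 (0.451, where WT replicate 1 had 0.493) and the plasma cell gene Mzb1 (4.82, where WT had 2.97 to 6.12) had Dp16 replicate 2 within the WT range. Ighg2c, Ighg3 and Mzb1 were named after their values were seen. Some other plasma cell genes had Dp16 replicate 2 above each WT library, such as Irf4 (9.83 CPM, where WT had 3.46 to 5.62) and Prdm1 (3.35, where WT had 1.46 to 2.64). The plasma cell genes Sdc1 (log2 fold change -0.11) and Xbp1 (0.06) had Dp16 replicate 2 within the WT range. Xbp1 was also named after its values were seen. Of the 18 genes of the list, antibody genes such as Ighg2b and Ighg2c included, 11 had Dp16 replicate 2 above each WT library. The share over all genes was not computed for this library alone, so the count has no scale. Ighg1 and Iglc3 were the 2 called by edgeR of 18 plasma cell and antibody genes tested, where 0.470% of all genes were called higher. Of the 18, 16 were positive (median 0.79) and DESeq2 called 12 higher, where 5.63% of all genes were. Without WT replicate 2 or without Dp16 replicate 1, edgeR called 0 genes of any list. Reads of antibody constant genes can be shared between similar copies, so their levels are uncertain.

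**Figure D3:**
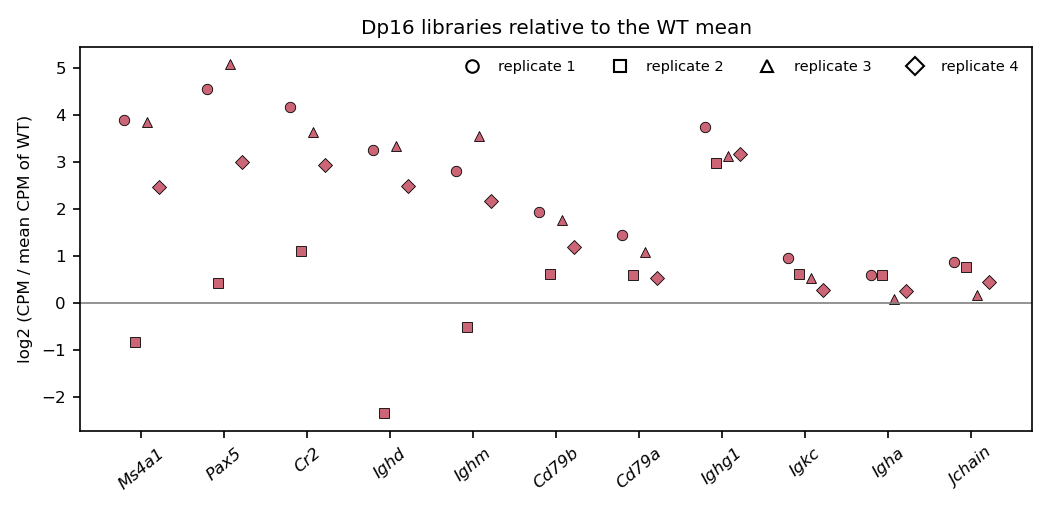
Log2 ratio of the CPM of each Dp16 library to the WT mean (y axis) for genes of mature B cells (left), the Cd79 chains (middle) and plasma cell or antibody genes (right), with a symbol for each replicate. Dp16 replicate 2 (square) lies near or below 0 for Ms4a1, Pax5, Ighd and Ighm, at 2.15 times the WT mean for Cr2, and close to or among the other Dp16 libraries for Cd79a, Ighg1, Igkc, Igha and Jchain.

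Among T cell genes, too, Dp16 replicates 1, 3 and 4 stood above WT, and Dp16 replicate 2 was close to it. All 15 tested were positive (median log2 fold change 1.88), and 0 were called by edgeR. Of them 15 had an unadjusted p below 0.05 (12.7% of all genes, upward) and DESeq2 called 14 higher (5.63% of all genes). Their summed level was 5.90 to 9.11 CPM in WT and 26.8, 9.41, 46.3 and 21.9 CPM in Dp16 replicates 1 to 4. Cd3e, a chain of the T cell receptor complex, had 61, 39, 27 and 38 reads in WT and 203, 46, 411 and 110 in Dp16 (log2 fold change 2.15, edgeR adjusted p = 0.0936). B cell reads per 100 T cell reads were 26.3 to 41.9 in WT and 47.6, 36.7, 27.8 and 28.6 in Dp16 replicates 1 to 4, so the ranges of the groups overlapped. Dp16 replicates 1 and 3, nearly equal in B cell reads, differed in T cell level.

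Ptprc, the CD45 gene of all leukocytes, had 31.2 ± 3.18 CPM in WT against 63.8 ± 20.1 in Dp16 (SD, n = 4; log2 fold change 1.03, SE 0.206, edgeR adjusted p = 0.0589). Per 1000 Ptprc reads the 9 B cell genes had 111, 73.2, 69.3 and 61.2 reads in WT replicates 1 to 4 and 188, 86.4, 146 and 106 in Dp16 replicates 1 to 4. The highest WT library was above 2 of the Dp16 libraries on this scale. Ms4a1 alone had 1.27 to 11.9 reads per 1000 Ptprc reads in WT and 33.6, 2.16, 25.2 and 14.5 in Dp16, so Dp16 replicates 1, 3 and 4 stayed above each WT library. All 6 pan-leukocyte genes were positive (median 0.61), with 0 called by edgeR, 4 at an unadjusted p below 0.05 and 1 called higher by DESeq2. Of 9 natural killer cell genes 7 were positive (median 0.65), with 1 called by edgeR, Klrd1 (1.39, edgeR adjusted p = 0.0331), 4 with p below 0.05 before adjustment and 4 called higher by DESeq2. Of 10 myeloid genes 9 were positive (median 0.17), with 0 called by edgeR, 2 at an unadjusted p below 0.05 and 1 called by DESeq2. The macrophage genes Csf1r (0.10) and Adgre1 (-0.19) reached edgeR adjusted p-values of 0.568 and 0.425.

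**Figure D4:**
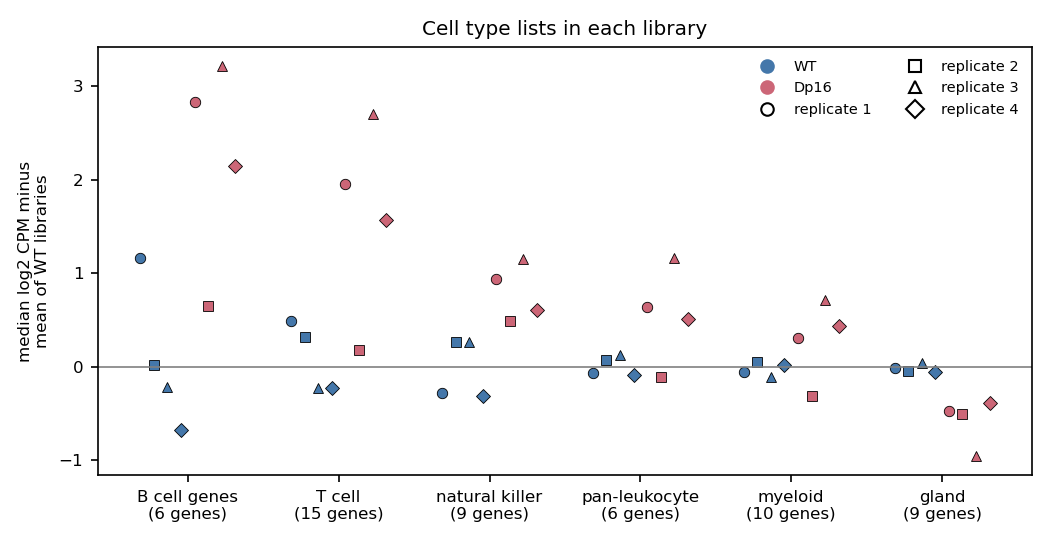
Median over the tested genes of each list of the log2 CPM minus the mean of the WT libraries (y axis), in each WT (blue) and Dp16 (red) library. For the B cell genes the values are 2.83, 0.65, 3.21 and 2.15 in Dp16 replicates 1 to 4 and -0.68 to 1.16 in WT, and Dp16 replicate 2 lies at 0.18 for T cell genes and at -0.11 for pan-leukocyte genes.

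Lymph nodes lie close to the submandibular gland, and markers of their stroma and vessels were examined for this reason. Ccl19 on chromosome 4 had 0 reads in all 8 libraries, and Ccl21a on the same chromosome had 1 read in WT replicate 2 and in Dp16 replicate 3 and 0 in the others. Both have copies on unplaced scaffolds and the files hold multi-aligned reads outside the genes, so these counts do not show that the genes were silent. Madcam1 had 1 read in Dp16 replicates 2 and 3 and 0 in the others, and Chst4, named after its values were seen, had 1 read in Dp16 replicates 1 and 3 and 0 in the others. Glycam1, a product of high endothelial venules and of mammary tissue, had 5 reads in Dp16 replicate 1, 4 in Dp16 replicate 3 and 0 in the other 6 libraries. The summed level of the 8 genes of this list was 5.77 to 13.8 CPM in WT and 6.52 to 22.3 in Dp16, of which Lyve1, Pdpn and Prox1, also found in lymphatic vessels of many organs, made up nearly all. Of these 3, all tested, 0 were called by edgeR or DESeq2 and 0 had an unadjusted p below 0.05 (median log2 fold change 0.30). Of 6 follicular dendritic cell genes, 5 were matched and tested, 3 were positive (median 0.76), 0 were called by edgeR, and 1, Coch (0.87, edgeR adjusted p = 0.103), had an unadjusted p below 0.05 and was called higher by DESeq2. Their summed level was 88.6 to 182 CPM in WT and 102 to 342 in Dp16. The part of these cell types in the B cell values was not tested.

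Gland genes were mostly lower in Dp16. Of 10 genes of acinar, duct and basal cells, 9 were tested and 7 had negative log2 fold changes (median -0.60). Klk1 was called lower by edgeR (-0.70, edgeR adjusted p = 0.0358), 3 were lower with p below 0.05 before adjustment and DESeq2 called 3 lower. Over all 19358 genes, 51.1% were positive and edgeR called 121, 75.2% of them higher. Before adjustment 4766 had p below 0.05, 2467 of them higher. DESeq2 called 1980 of 20250 genes, 57.6% of them higher. These values serve the fat and muscle genes too. Aqp5, the water channel of acinar cells, had 106 ± 7.96 CPM in WT against 66.6 ± 12.9 in Dp16 (SD, n = 4; -0.66, edgeR adjusted p = 0.0589). Of 6 fat and muscle genes, 5 were tested and all were negative (median -1.52), with 0 called by edgeR, 3 at an unadjusted p below 0.05 and 1 called lower by DESeq2. The fat marker Adipoq had 60, 13, 46 and 17 reads in WT and 4, 22, 3 and 9 in Dp16. WT replicate 1, with the most B cell reads of its group (354), also had the most Adipoq reads. Across both groups Adipoq was lowest in Dp16 replicates 3 and 1, the libraries with the most B cell reads. Lep, another fat gene of the list, did not share this order, with 37, 0, 6 and 15 reads in WT and 11, 19, 8 and 2 in Dp16. The part of these shifts in the B cell values was not tested.

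Protein-coding genes most like the B cell markers across libraries were found by correlating log2 CPM with the mean of the 6 tested markers, each standardised. These values describe 8 libraries that share the group difference, over 14436 genes. High among them were Sept1 (r = 0.992), Sema3d (0.983), Rasa4 (0.983), Gimap8 (0.980), Cdc14b (0.979), Cd200 (0.976), Grk6 (0.975), Cfap70 (0.974) and Slamf6 (0.972). Slamf6, a receptor of T, B and natural killer cells, had 62, 19, 37 and 14 reads in WT and 255, 51, 403 and 94 in Dp16. Of the genes named above, Ptprc had r = 0.95, Cd3e had 0.94 and Jchain had 0.61.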

How the data were processed

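Gene counts of 8 libraries were used as the authors deposited them, whole-number counts of reads per gene that were not normalised. Per the labels' protocols, total RNA was depleted of ribosomal RNA before stranded library preparation. Per the submitters' processing notes, FastQC, STAR, HTSeq and DESeq2 were used with build GRCm38. The release of the annotation and its strand setting were not given in the sources used here. Of 54838 gene identifiers, 54809 matched GENCODE M21, from which names and exon lengths were taken. Rows naming no gene (58.1% to 65.4% of reads, of which multi-aligned reads were 35.8% to 43.9% of all) were left out of library sizes.

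Libraries were compared by edgeR 4.0.16 (R 4.3.3) quasi-likelihood tests with TMM factors, filterByExpr (minimum count 10) and Benjamini-Hochberg adjustment over the 19358 genes that passed, at a threshold of 0.05. CPM values are TMM-scaled. Alternatives were DESeq2 1.42.0, limma-voom (limma 3.58.1), other scalings, filters and thresholds, a replicate term, and each library left out in turn. The functions were tested on simulated counts. Replicates of a group differed by more than sampling noise (lowest chi-square per degree of freedom 85.7).

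The 9 genes and the comparison lists were chosen with earlier results of these data known. Named are the 9 genes, a fixed set of reference genes, up to 3 others per list with the smallest p, and the 10 genes most correlated with the B cell genes, except a few genes that are not reported here. Depth limits precision for genes under about 10 reads, and a count of 0 allows up to 3.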

Additional observations from a re-analysis of the deposited data

Results flagged for a closer look

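In 21 of 210 groups of 4 libraries examined (9 B cell genes, other named genes and summed lists), the highest or lowest library stood apart from the other 3 by more than Dixon's 95% critical value for 4 samples. For normally distributed values, chance flags about 1 in 20 groups. Genes with few reads do not meet this condition, and the genes and the sums that hold them are not independent. The 21 groups are therefore not read as an excess.

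Of the B cell genes, 4 had such a library, each in the WT group. WT replicate 4 was low in Cd79a at 0.59 CPM, where the other WT libraries had 1.18 to 1.29. WT replicate 1 was high in Cd79b at 1.01 CPM, against 0.694 to 0.739, and in Fcmr at 0.0604 CPM, against 0. WT replicate 3 had 0 CPM of Fcer2a, where the others had 0.0174 to 0.0208, a difference of 2 reads. WT replicate 1 was also high in Cxcr5 at 0.0906 CPM.

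Dp16 replicate 3 was high in Cxcl13 at 17.7 CPM, where the other Dp16 libraries had 0.763 to 2.25, and in Clu at 225, Vcam1 at 33.9, Lyve1 at 15.1 and Itgam at 10.9 CPM. The summed follicular dendritic cell list, at 342 CPM, and the summed lymph node stroma and vessel list, at 22.3 CPM, were high in Dp16 replicate 3 too. Dp16 replicate 2 was low in the T cell gene Cd28 at 1.85 CPM, where the other Dp16 libraries had 4.22 to 4.67, and in the macrophage gene Csf1r at 48.4 CPM.

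WT replicate 3 was high in Sdc1 at 12.1 CPM, in Smgc at 5.15 CPM and in the sum of other B cell surface genes at 41.3 CPM, where the other WT libraries had 28.1 to 29.2 for that sum. The single reads of Ccl21a, 0.0104 CPM in WT replicate 2 and 0.00928 CPM in Dp16 replicate 3, stood apart from 0 in the other libraries. In the Dp16 group, replicate 4 was high in Smgc at 0.475 CPM and replicate 1 in Bhlha15 at 157 CPM.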

How the results depend on the processing

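The log2 fold changes of the 9 B cell genes were positive under all 100 combinations of gene and alternative that gave a value, from 0.76 to 4.40. In 78 of them the gene stayed on the same side of the threshold, in 22 it came to pass, and in 0 did it turn. The 22 include Cd79b, Cr2 and Blk at the looser threshold of 0.10, where their p-values were unchanged. For Pax5, Fcer2a and Fcmr the alternatives were set against the fit without the filter. The counts of calls moved more. By edgeR, 0 of the 6 genes tested passed (6 at an unadjusted p below 0.05). DESeq2 called 6, limma-voom 2, edgeR without the expression filter 1 and edgeR at an adjusted p below 0.10 called 3. Leaving out 1 library gave 0 to 6, with 6 only without Dp16 replicate 2. Over all genes, 121 were called, 1980 by DESeq2, 396 by limma-voom, 223 without the filter, 1308 below 0.10, and 0 to 446 with 1 library left out. It was 0 without WT replicate 2 or Dp16 replicate 1, where 3376 and 3583 genes had an unadjusted p below 0.05, and 446 without Dp16 replicate 2. Leaving out WT replicate 1 gave 63, WT replicate 3 gave 4, WT replicate 4 gave 11, Dp16 replicate 3 gave 56 and Dp16 replicate 4 gave 14. Of the genes called, 75.2% were higher in Dp16, 57.6% by DESeq2 and 62.4% by limma-voom. Of the 134 genes tested in the comparison lists, 4 were called, 57 by DESeq2, 13 by limma-voom, 15 without the filter, 34 below 0.10 and 0 to 31 with 1 library left out. The median log2 fold change of the tested B cell genes, 2.51, was 1.25 under a minimum of 1 CPM, which only 2 of them passed, and 2.15 to 3.44 with 1 library left out, the highest without WT replicate 1. The causes of these differences were not tested, apart from the genes the filters keep.

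A fit that took replicate numbers as a block called 776 genes over all (46.4% higher), 4 of the B cell genes (Ms4a1, Cd79b, Cr2 and Blk) and 23 list genes. The labels give no shared source for equal numbers, and the library name of WT replicate 4 carries the number 5. The deviations of same-numbered libraries correlated by 0.191, 0.129, 0.0777 and 0.105, and 4 of the 8 libraries correlated best with their own number. The numbers were used as a pairing only here, since that needed a correlation above 0.1 in every pair, which replicate 3 missed, and whether the samples are paired is not settled by these values. Fcer2a and Fcmr gave values only without the filter and by DESeq2.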
